A study of Danio rerio with 2 samples.

Results

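A set of 10 genes of bone, cartilage and mineralized matrix was followed in zebrafish larvae after knockdown of *miR-132*, with the question of where *odam* lay among the others. The group held *odam*, *spp1*, *sparc*, *bglap*, *sp7*, *runx2a*, *runx2b*, *sox9a*, *matn1* and *col10a1* (*col10a1a* in current annotation), which are 10 of the 12307 genes with a measured probe. *odam* was selected on its extreme ratio between the same 2 arrays, and the others were chosen by name as well-known skeletal genes, so the ratio of *odam* is given as a description only. Their probes were found through the RefSeq accession that the array design gives for each probe. All 10 genes were matched, with 24 probes, of which 23 were well above background on at least 1 array.

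One group of larvae had been injected with 8 ng of *miR-132* MO, a morpholino directed against mature *miR-132*, and the other with 8 ng of Ctrl MO. Morpholinos are synthetic antisense molecules that pair with an RNA and block it, here in all tissues of the injected animal. Both groups had the chorion removed with pronase. They were kept in diluted Hanks' solution with phenylthiourea (PTU), which the study's husbandry methods add to prevent pigment formation. Total RNA was taken from both groups at 3 days post fertilization (dpf). RNA of each group was labelled with Cy3 and hybridised to 1 array, and both arrays lay on 1 slide. With 1 array a group there is no replicate error, no test was possible and no p-value is given. Knockdown of *miR-132* itself cannot be checked from these mRNA probes, and the number of larvae behind each RNA sample is not given in the sources used here.

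Skeleton forms from cartilage, laid down by chondrocytes, and from bone, laid down by osteoblasts. Sox9 factors direct chondrocytes, and Runx2 and Sp7 (osterix) direct osteoblasts, which then secrete collagens and calcium-binding matrix proteins. Many of the acidic matrix proteins of bone and tooth belong to the secretory calcium-binding phosphoprotein (SCPP) family, which arose from a Sparc-like ancestor by tandem duplication and includes *spp1*, *enam*, *ambn*, *odam* and several genes found in fish.

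Intensities are the processed spot values of the scanner software in arbitrary units. For a ratio, each log2 intensity was first set relative to the 75th percentile of its own array, which was 866 in *miR-132* MO and 731 in Ctrl MO. Log2 ratios are *miR-132* MO minus Ctrl MO, as means over a gene's probes. Of the transcript spots, 80.3% in *miR-132* MO and 88.0% in Ctrl MO were well above background, and 0 were saturated on either array. The lowest intensity above background was 16.8 in *miR-132* MO and 7.17 in Ctrl MO, so dim genes were harder to measure on the *miR-132* MO array. Negative control spots had an SD of 17.2 in *miR-132* MO and 2.98 in Ctrl MO. Among 26 probes printed on 5 spots each, the spots' log2 ratios had a median SD of 0.24 for the 10 probes of mean intensity under 100 and 0.086 for the 16 brighter probes, which covers spot noise only.

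*odam* was the only gene of the set with a ratio past 1.5-fold in either direction. It was 30.5-fold lower in *miR-132* MO on its single probe, a log2 ratio of -4.93, or -3.50 with background correction by normexp. Its *miR-132* MO reading was dim, so the size of the fold is uncertain. The bone genes *bglap*, *sparc* and *sp7* and the cartilage genes *sox9a*, *matn1* and *col10a1a* lay within 1.5-fold. Of the 9 genes with a ratio, 0 were at least 1.5-fold higher and 1, the selected *odam*, was at least 1.5-fold lower. Over all 12075 genes with a ratio, 3.98% were higher and 8.42% were lower by that much, 12.4% in either direction. The median log2 ratio was -0.12 for the 9 genes and -0.01 for all genes, and 90% of all genes lay between -0.82 and 0.54. Without *odam*, the genes ranged from -0.57 for *spp1* to 0.19 for *col10a1a*. The genes nearest to the 1.5-fold line on its other side were *spp1* and *runx2b*.

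**Figure D1:**
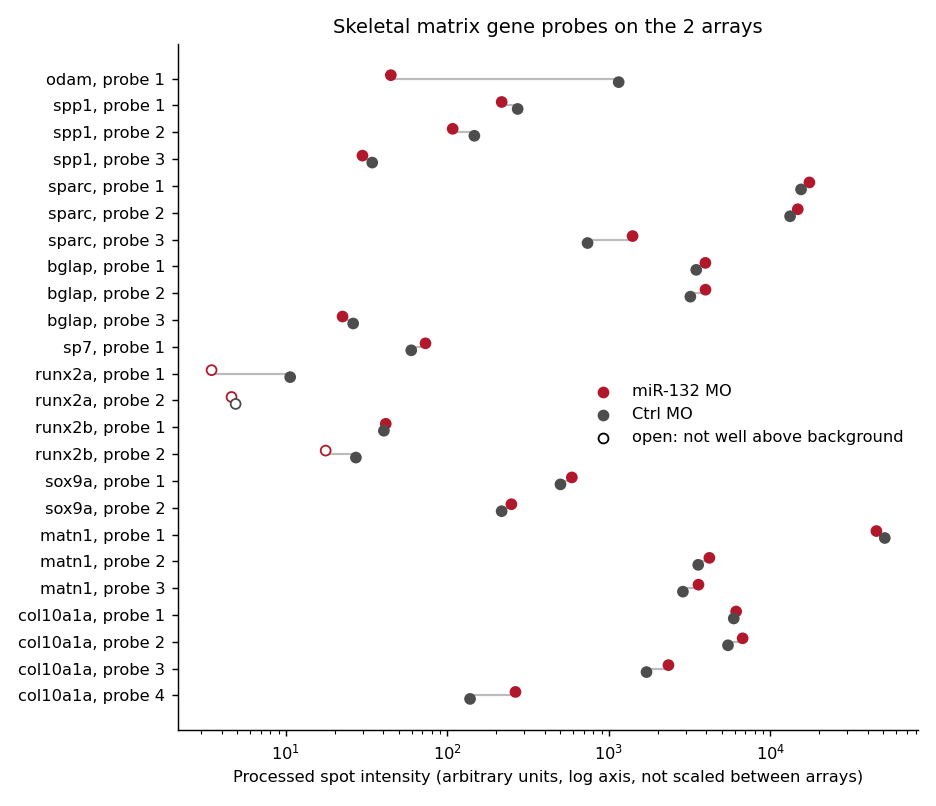
Processed intensity of each of the 24 probes (log axis, arbitrary units, not scaled between arrays) on the *miR-132* MO array (red) and the Ctrl MO array (grey), 1 array each, with open circles for spots not well above background. The gap for *odam*, 44.6 in *miR-132* MO and 1149.7 in Ctrl MO, is the widest, and levels of different probes cannot be set against each other.

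*odam* encodes the odontogenic ameloblast-associated protein, which in mammals is secreted by enamel-forming ameloblasts and by the epithelium that seals the gum to the tooth. Its single probe read 44.6 in *miR-132* MO and 1149.7 in Ctrl MO larvae, above background on both arrays. The 44.6 is a dim reading. On that array the lowest intensity above background was 16.8 and negative control spots had an SD of 17.2, so the size of the fold is uncertain. The log2 ratio was -4.93, which ranked 3 from the bottom of the 12075 genes with dim genes held at their limits, and 7 with their measured ratios or with normexp. On the authors' own log2 scale the same probe read 5.49 in *miR-132* MO and 10.42 in Ctrl MO, a difference of -4.93. With background correction by normexp, which with its offset shrinks the ratios of dim spots, the log2 ratio was -3.50.

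Of the 5 genes nearest to *odam* in log2 ratio, 3 encode pancreatic proteases. *ela3l* (-5.18) and *ela2* (-5.08), which encode pancreatic elastases, were below it. Listed next above it were *scpp9*, a fish gene of the SCPP family (limit -4.81), *ctrb.3*, a chymotrypsinogen gene (-4.72), and *c6ast4*, an astacin protease gene (limit -4.597). The values of *scpp9* and *c6ast4* are limits, since neither was well above background on the *miR-132* MO array, and both may lie below *odam*. The likeness is in the ratio between 2 arrays alone.

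Other tissues differed between the same 2 RNA samples. All 5 exocrine pancreas markers were lower in *miR-132* MO past 1.5-fold (*prss1* -2.89, *ela2* -5.08; median -2.89), with a summed intensity of 9236 in *miR-132* MO and 69400.1 in Ctrl MO. All 5 photoreceptor markers were lower too (*gnat2* -1.59, *opn1sw1* -1.79; median -1.59), with sums of 148622 in *miR-132* MO and 340745 in Ctrl MO. Of the 5 measured epidermis markers 2 were higher (*krt4* 0.66, *krt5* 0.77) and 1 was lower (*agr2* -0.67, named after its value had been seen). The epidermis median was 0.31, with sums of 832118 in *miR-132* MO and 563328 in Ctrl MO. Of 5 muscle markers 1 was lower (*acta1b* -1.60, named after its value had been seen), and *ckma* was at 0.40 and *actc1b* at -0.45. The muscle median was -0.15, with sums of 1492714 in *miR-132* MO and 1659887 in Ctrl MO. Of 5 neuron markers none was past 1.5-fold (*elavl3* 0.10, *elavl4* 0.09), and the median of the 5 was -0.18. Sums for the neuron markers were 73588 in *miR-132* MO and 70726.9 in Ctrl MO. The sums are of intensities not scaled between the arrays, whose 75th percentiles were 866 in *miR-132* MO and 731 in Ctrl MO. They are thus not on the scale of the log2 ratios. All 25 measured markers were above background on both arrays. Their part in the *odam* value was not tested, and in RNA of whole larvae fewer cells of a type and less RNA per cell cannot be told apart.

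**Figure D2:**
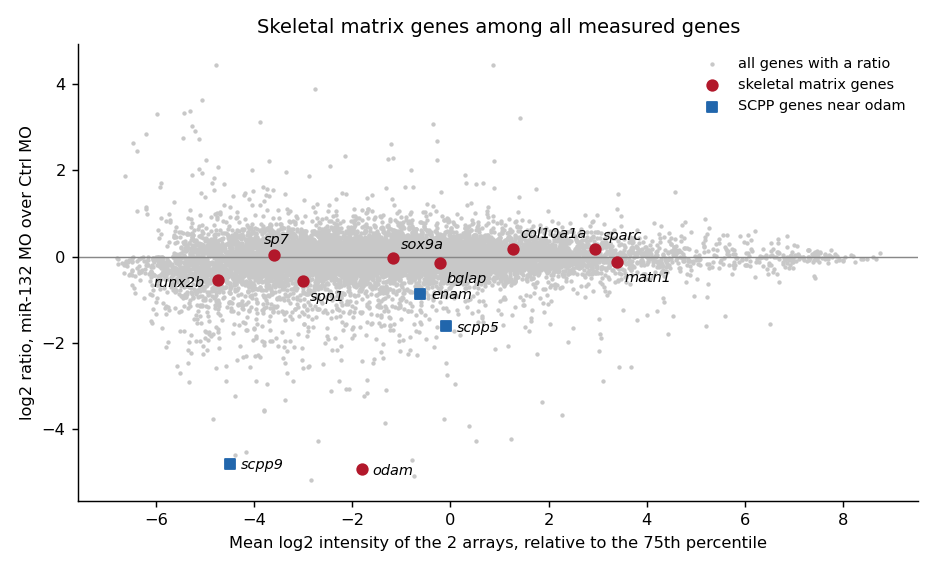
Log2 ratio (*miR-132* MO minus Ctrl MO) against the mean log2 intensity of both arrays, relative to the 75th percentile, for all 12075 genes with a ratio (grey), the 9 skeletal matrix genes with a ratio (red circles) and 3 SCPP genes of the same row, *scpp9*, *scpp5* and *enam* (blue squares). *odam* and *scpp9* lie at the lower edge, near -4.93 and -4.81, and the other red points lie between -0.57 and 0.19.

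In the gene order of the GRCz12tu assembly, from which only names and order were used, *odam* stands among other SCPP genes. *scpp9*, its next neighbour on one side, read 3.35 in *miR-132* MO (not well above background) and 372 in Ctrl MO. At the limit it was 28.0-fold lower, and its log2 ratio ran from -7.04 to -2.98 over the settings that gave one. The limit is no strict minimum, since a *runx2b* probe that read 17.6 in *miR-132* MO was also not well above background. On the other side, 5 genes away, *scpp5* read 464 in *miR-132* MO and 1201 in Ctrl MO, a log2 ratio of -1.62 or 3.07-fold lower. The ratios of *scpp9* and *scpp5* thus had the same sign and unlike sizes.

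The other measured genes of the row lay on both sides of 0. *scpp7*, which lies between *scpp5* and *odam*, read 31.1 in *miR-132* MO and 25.04 in Ctrl MO (log2 ratio 0.07). That single probe is dim, near the lowest intensity above background of 16.8 in *miR-132* MO, so little can be read from its ratio. *enam*, the enamelin gene next to *scpp5*, was lower past 1.5-fold at -0.86 over its 2 probes (-0.56, under the threshold, with normexp). Its higher probe reading on each array was 1200.4 in *miR-132* MO and 1818 in Ctrl MO. At the ends of the row, *cnga1a*, a cyclic nucleotide-gated channel gene, was also lower at -0.62 (69.5 in *miR-132* MO and 90.2 in Ctrl MO). That is just past 1.5-fold on a single dim probe, and its call under the alternatives is not given here. At the other end, *zgc:66472* was at 0.22 as the mean of its 3 probes. The highest probe reading of *zgc:66472* on each array was 350.002 in *miR-132* MO and 217.9 in Ctrl MO. *ambn* and 2 other genes between *scpp7* and *odam* had no matched probe. *enam*, *cnga1a* and *zgc:66472* were named for their place after their values had been seen.

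**Figure D3:**
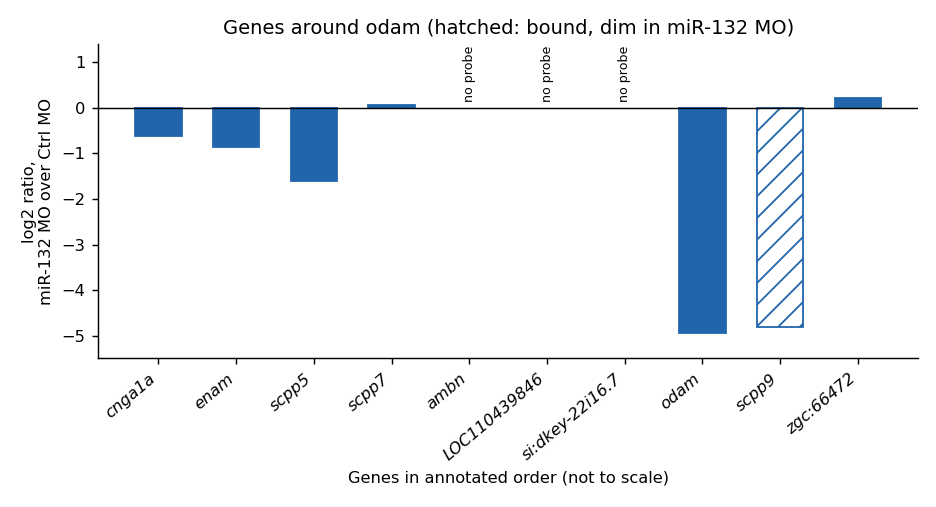
Log2 ratio (*miR-132* MO minus Ctrl MO) for 10 genes in their annotated order around *odam*, not to scale, 3 of them with no probe, and with the hatched bar for *scpp9* a limit because it was dim on the *miR-132* MO array. *odam* (-4.93), *scpp9* (-4.81) and *scpp5* (-1.62) stand out below 0, and *scpp7* between them is at 0.07 on a dim probe.

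Among the other matrix genes of bone, *spp1* was the one nearest to the threshold. *spp1* encodes osteopontin, an acidic SCPP protein that binds calcium and integrins. Its 3 probes read 217, 108 and 29.8 in *miR-132* MO and 272, 147 and 34.2 in Ctrl MO. All 3 probes were lower in *miR-132* MO, with log2 ratios of -0.57, -0.69 and -0.45 and a mean of -0.57, or 1.49-fold lower. This lies just under 1.5-fold, and 8.66% of all genes had a lower ratio. With normexp the value was -0.38. *scpp8*, the SCPP gene next to *spp1*, read 19.7 in *miR-132* MO and 15.7 in Ctrl MO, a log2 ratio of 0.08 on a dim probe.

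*sparc* encodes osteonectin, a collagen-binding matrix glycoprotein made in many tissues besides bone. Its 2 brighter probes read 17444 and 14774 in *miR-132* MO and 15481 and 13239.9 in Ctrl MO, log2 ratios of -0.07 and -0.09. The third probe read 1402 in *miR-132* MO and 738 in Ctrl MO, a log2 ratio of 0.68. The probes thus disagreed by 0.77, a wider range than in 89.3% of the 1845 genes with 3 probes, whose median range was 0.34. The mean of 0.17 rests on the third probe, since the brightest probe alone gave -0.07.

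*bglap* encodes osteocalcin, a vitamin K-dependent calcium-binding protein of bone matrix. Its 2 brighter probes read 3959 and 3965 in *miR-132* MO and 3474 and 3194 in Ctrl MO, with log2 ratios of -0.06 and 0.07. The last probe, a dim one, read 22.4 in *miR-132* MO and 26.1 in Ctrl MO, a log2 ratio of -0.46. The mean was -0.15, and with normexp, which pulls dim probes together, it was 0.02.

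The osteoblast regulators were dim, and little could be read from them. *sp7* encodes osterix, a transcription factor that osteoblasts need to mature, and its single probe read 73.2 in *miR-132* MO and 59.7 in Ctrl MO, a log2 ratio of 0.05. *runx2b* read 41.5 in *miR-132* MO and 40.4 in Ctrl MO on its brighter probe (-0.21). Its second probe read 17.6 in *miR-132* MO (not well above background) and 27.1 in Ctrl MO (-0.87). The mean of -0.54 therefore leaned on a dim reading, and with probes above background on both arrays alone it was -0.21. The disagreement of 0.66 between the probes was wider than in 91.0% of the 4424 genes with 2 probes.

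*runx2a*, the other copy of the Runx2 gene, gave no ratio. Its first probe read 3.46 in *miR-132* MO (not well above background) and 10.6 in Ctrl MO, and the Ctrl MO value is below the lowest intensity above background on the *miR-132* MO array. Its second probe, at 4.605 in *miR-132* MO and 4.88 in Ctrl MO, was not well above background on either. Taken as measured, the first probe had a log2 ratio of -1.86, and the authors' normalized values of it were 1.53 in *miR-132* MO and 3.45 in Ctrl MO. These are readings at the floor of the *miR-132* MO array and set no fold.

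**Figure D4:**
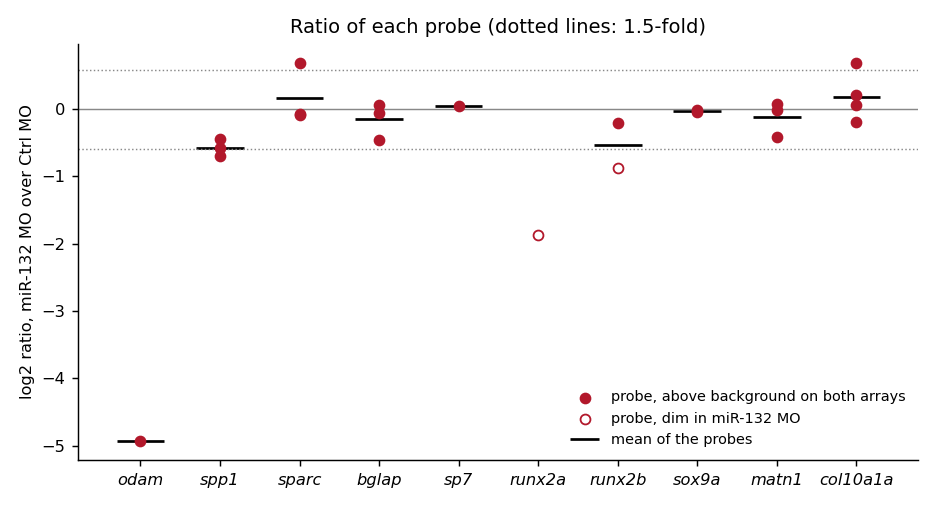
Log2 ratio (*miR-132* MO minus Ctrl MO) for each measured probe (points) of the 10 genes, with the mean of the probes (black bars) and 1.5-fold lines (dotted), open circles marking probes dim on the *miR-132* MO array. Only *odam*, at -4.93, has a mean outside the dotted lines, *runx2a* has no mean because its probe is a reading at the floor, and *sparc* and *col10a1a* each have 1 probe near 0.68 and 0.69.

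The cartilage genes were brighter relative to background and lay near 0. *sox9a*, which encodes a transcription factor that starts chondrocyte differentiation, read 590 and 249 in *miR-132* MO and 501 and 217 in Ctrl MO on its 2 probes. Its log2 ratios of -0.01 and -0.04 differed less from each other than those of most genes with 2 probes. *matn1*, the matrilin-1 gene, whose product links fibres of cartilage matrix, read 45330.2, 4189 and 3587 in *miR-132* MO and 51090.7, 3573 and 2873 in Ctrl MO on its 3 probes. The brightest probe was at -0.42 and the others were at -0.02 and 0.07, for a mean of -0.12.

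*col10a1a* encodes type X collagen, the collagen of hypertrophic chondrocytes, which bone-forming cells of fish also make. Its 4 probes read 6136, 6732, 2338 and 264 in *miR-132* MO and 5930, 5463, 1709.8 and 138 in Ctrl MO. The log2 ratios were -0.20, 0.06, 0.21 and 0.69, so that the dimmest probe was past 1.5-fold and the brighter ones were not. The range of 0.88 was wider than in 86.4% of the 611 genes with 4 probes, and the mean was 0.19. On the authors' log2 scale that dimmest probe read 8.04 in *miR-132* MO and 7.34 in Ctrl MO, and the third probe of *sparc* read 10.47 in *miR-132* MO and 9.78 in Ctrl MO. Both readings come from the same arrays and from probes the authors selected, so they are no second measurement. The other probes of *sparc* and *col10a1a* were not among those selected.

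Counted one by one, 2 of the 22 member probes with a ratio were higher by 1.5-fold or more in *miR-132* MO (*sparc* probe 3 and *col10a1a* probe 4) and 3 were lower by as much (*odam*, *spp1* probe 2 and *runx2b* probe 2). Over all 36954 probes with a ratio, 5.52% were higher and 8.85% were lower. For *sparc*, *bglap*, *sox9a* and *matn1* the sign of the mean turned under at least 1 alternative, with values of -0.07 for *sparc* with the brightest probe, 0.02 for *bglap* with normexp, 0.04 for *sox9a* with spike-in scaling and 0.03 for *matn1* with normexp. No direction is given for these 4 genes.

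Finally, 10 lists of further skeletal genes, 144 genes in all, were then read against the same background. The lists were chosen with earlier results of these data known, so their shares are a description only. Of the 112 with a ratio, 16 were higher by 1.5-fold or more in *miR-132* MO and 7 were lower, or 14.3% and 6.25%, where all genes gave 3.98% and 8.42%. The median log2 ratio was 0.15, where that of all genes was -0.01. Of these list genes 76 were above 0 and 36 below, some of them only slightly, and the share of all genes above 0 is not given here. *scpp9*, at a limit of -4.81, had the lowest ratio in these lists. *odam*, which is in none of the lists and was selected on its extreme ratio, was also lower than the rest of them. Genes past 1.5-fold were spread unevenly among the lists.

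**Figure D5:**
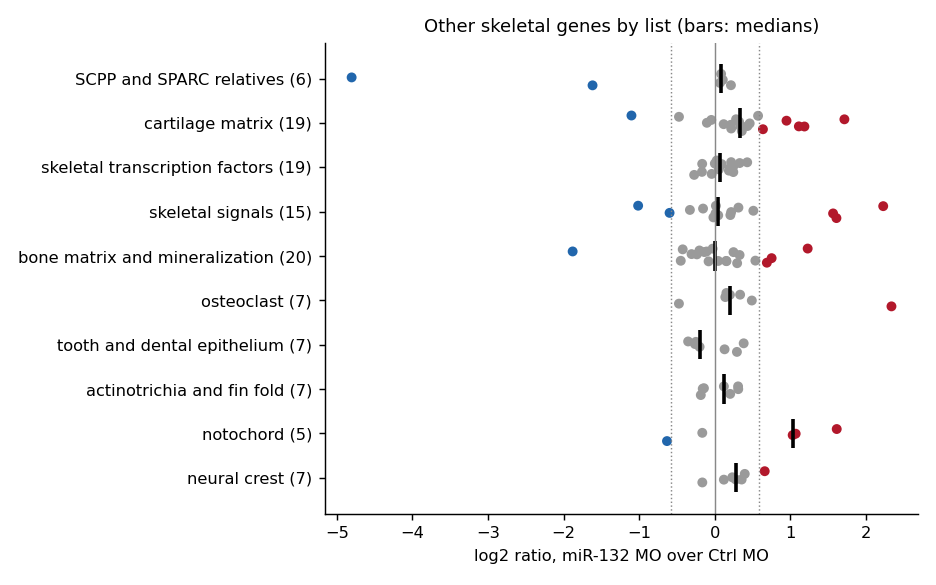
Log2 ratio (*miR-132* MO minus Ctrl MO) for the 112 genes with a ratio in 10 skeletal gene lists (number of genes in brackets), with genes at least 1.5-fold higher in red, at least 1.5-fold lower in blue, others in grey, list medians as black bars and 1.5-fold as dotted lines. The points of *scpp9* (-4.81) and *scpp5* (-1.62) stand alone in the top row, and 5 of the 16 red points lie in the cartilage matrix row.

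In the list of SCPP and Sparc relatives, 2 of 6 measured genes were lower (*scpp9* and *scpp5*), 0 were higher, and the median was 0.08. *sparcl1*, *smoc1*, *scpp7* and *scpp8* made up the remainder, between 0.07 and 0.21. The median rests on *scpp7* and *scpp8*, each a single dim probe (31.1 and 19.7 in *miR-132* MO), so it says little about the family.

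Among genes of cartilage matrix, 5 of 19 measured genes were higher, 1 was lower and the median was 0.34. *col9a1b*, a chain of type IX collagen, which decorates cartilage fibrils, had the highest ratio at 1.72 or 3.29-fold. Its 5 probes read 21350.9, 18397, 2677, 513 and 174 in *miR-132* MO and 5826, 5405, 603, 95.3 and 57.6 in Ctrl MO. Every probe was higher in *miR-132* MO, with log2 ratios between 1.35 and 2.18.

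*matn3a*, one of the 2 matrilin-3 genes, was at 1.19, with 2321, 829.9 and 556 in *miR-132* MO and 776, 276 and 254 in Ctrl MO. Also past 1.5-fold, and named after their values had been seen, were *matn3b* (0.95; 2918 and 1663 in *miR-132* MO, 1261 and 734 in Ctrl MO), *chad*, the chondroadherin gene (1.11; 479.8 and 223 in *miR-132* MO, 176 and 92.3 in Ctrl MO), and *col9a2* (0.64), of whose 2 probes only the dimmer one passed. *ucmaa*, which encodes a small protein of young cartilage, was lower at -1.10, with 182 in *miR-132* MO and 329 in Ctrl MO.

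The transcription factors of the skeleton lay close together in the means over their probes. Of 19 measured genes, 0 were past 1.5-fold, and the ratios ran from -0.27 for *runx3* to 0.43 for *atf4b* around a median of 0.08. Single probes lay further out, and those of *atf4b* ran from 0.15 to 0.62. With the brightest probe in place of the mean, 1 gene of the list was higher. *sox9b*, the other copy of the Sox9 gene, was at 0.33, and *sox5* and *sox6*, partners of Sox9 in chondrocytes, were at 0.25 and 0.20. *runx3* and *cbfb*, a relative of Runx2 and the partner subunit of Runx proteins, were at -0.27 and 0.09. These 6 were named for their relation to the members and after their values had been seen.

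Skeletal signals lay on both sides, with 3 of 15 measured genes higher, 2 lower and a median of 0.05. Parathyroid hormone genes, whose products raise blood calcium in mammals, were higher. *pth1b* was at 2.23 (216 and 97.9 in *miR-132* MO, 36.7 and 18.6 in Ctrl MO on its 2 probes). *pth1a* was 3.05-fold higher at its limit (26.0 in *miR-132* MO, and 6.72, not well above background, in Ctrl MO). Both *pthlha*, a related paracrine factor of cartilage (-1.01; 20.3 in *miR-132* MO, 34.6 in Ctrl MO), and *ihha*, the Indian hedgehog gene (-0.60; 829 in *miR-132* MO, 1058 in Ctrl MO), were lower. With normexp *pth1a* was at 0.06 and *pthlha* at -0.32, and with spike-in scaling *ihha* was at -0.53, so these 3 calls did not stand under every setting.

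The parathyroid hormone receptor gene, listed as *pth1ra* and now named *pth1r*, was the third higher signal gene, named after its values had been seen. Its 2 probes disagreed in direction, at -0.67 (58.9 in *miR-132* MO, 79.3 in Ctrl MO) for one and 3.81 (214 in *miR-132* MO, 12.9 in Ctrl MO) for the other, so its mean of 1.57 describes neither.

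In the list of bone matrix and mineralization, 3 of 20 measured genes were higher, 1 was lower and the median was 0.01. *stc1l*, which encodes a stanniocalcin, a family that limits calcium uptake in fish, was at 1.23 (953 in *miR-132* MO, 343 in Ctrl MO). *p4ha1b*, a subunit of the enzyme that hydroxylates collagen prolines, was at 0.75 (1521 in *miR-132* MO, 761 in Ctrl MO), and *plod1a*, a collagen lysyl hydroxylase gene named after its value had been seen, was at 0.69, with 2 of its 4 probes under 1.5-fold and the brightest at 0.57. *ahsg1*, the fetuin-A gene, whose product is made in mammalian liver and holds calcium phosphate in solution, was at -1.88, with 42.4, 22.1 and 26.4 in *miR-132* MO and 184, 70.4 and 57.2 in Ctrl MO. The 22.1 was not well above background.

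The main structural collagens and the enzyme of mineral deposition were under 1.5-fold. *col1a1a*, *col1a1b* and *col1a2*, the chains of type I collagen that make up most of bone matrix, were at 0.15, 0.16 and 0.25. *alpl*, the alkaline phosphatase that frees phosphate for mineral, was at -0.45, and *mgp*, a relative of *bglap* that inhibits calcification, was at -0.42. These 5 were named for their roles after their values had been seen.

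Among osteoclast genes, 1 of 7 measured genes was higher, 0 were lower and the median was 0.20. *acp5a* encodes tartrate-resistant acid phosphatase, a marker of bone-resorbing cells. Its 3 probes read 1039.7, 342 and 235 in *miR-132* MO and 176, 59.6 and 37.0 in Ctrl MO, a mean log2 ratio of 2.34 or 5.06-fold. The RNA is of whole larvae, so the cells behind the *acp5a* ratio cannot be told. The other copy, *acp5b*, was at -0.47, and *ctsk*, the cathepsin K gene, at 0.34, both named after their values had been seen.

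The list of tooth and dental epithelium genes, which is the tissue *odam* is known from in mammals, had 8 measured genes. Of the 7 with a ratio, 0 were past 1.5-fold in either direction, and the median was -0.20. *eda*, the ectodysplasin gene, was dim in *miR-132* MO and gave no ratio (-0.91 as measured). *dlx2b*, which encodes a transcription factor of tooth germs, was at 0.13, and *edar*, the ectodysplasin receptor gene, was at -0.35. *shha*, which marks the forming dental epithelium, was at 0.38. These 4 genes were named after their values had been seen, and they are expressed in other tissues of the larva too.

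Of 7 actinotrichia and fin fold genes, 0 were past 1.5-fold (median 0.12). Of 5 notochord genes, 3 were higher and 1 was lower (median 1.03, but 0.51 with normexp and 0.43 with no filter on dim probes). *cmn*, which encodes calymmin of the notochord sheath, was at 1.61 (2169.7 and 366 in *miR-132* MO, 536 and 113 in Ctrl MO), and *tbxta*, the brachyury gene, was at 1.07 (93.4 in *miR-132* MO, 37.5 in Ctrl MO). The third higher gene was *col8a1a* at 1.03 (860.3 in *miR-132* MO, 355 in Ctrl MO), named after its value had been seen. *mia*, whose mammalian relative is secreted by cartilage, was at -0.63 (4882.5 in *miR-132* MO, 6382 in Ctrl MO). With normexp *tbxta* was at 0.51 and *mia* at -0.46, and with spike-in scaling *mia* was at -0.56, all under 1.5-fold. Of 7 neural crest genes, 1 was higher (median 0.28), and this was *snai2*, which encodes a transcription factor of migrating crest (0.66), where 1 of 4 probes was at 1.98 and the brightest at 0.06.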

How the data were processed

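Total RNA of 2 groups of zebrafish (*miR-132* MO and Ctrl MO, 8 ng each, 3 dpf) was measured on 1 one-colour Agilent array per group. Groups were taken from the sample labels. The authors deposited the processed intensity of each spot, background-subtracted within its array by Agilent Feature Extraction 10.7 (per the submitters' processing notes) and not normalized between arrays, as well as the median signal and background signal intensity. A further table deposited by the authors lists 5820 probes they selected, with normalized log2 values and their own fold changes. Its normalization is not given in the sources used here, its values were used for 4 member probes only, and the fold changes were not used.

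Here log2 intensities were taken, spots of a probe averaged, and each array scaled by subtracting the 75th percentile of its non-control spots. Of 43603 probes, 43594 remained without outlier flags and 38532 were well above background on at least 1 array. RefSeq accessions, compared without versions, matched 25069 of 26981 probes to 12858 genes of the GRCz12tu table, which gave 12307 measured genes and 12075 with a ratio. Probes of a gene were averaged. Where a gene was above background on 1 array only, the dimmer side was set to its own intensity or that array's lowest intensity above background, whichever was higher. This gave 331 limits, and 232 genes for which no fold was left had no ratio. A gene at least 1.5-fold higher or lower was counted. There is no test, and the number of arrays limits the precision.

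The 10 genes, the lists and the rules were chosen with earlier results of these data known. Named were all 10 genes and their probes, in each list the 2 highest and 2 lowest genes whose every probe passed 1.5-fold in 1 direction, the 3 genes nearest *odam* on either side (only 2 lay below it) and the first 2 markers of each of 5 sets. Alternatives were quantile, loess (span 0.3), median and spike-in scaling (226 spots), normexp (offset 50, limma 3.58.1, on median signals), both arrays above background, no filter, the brightest probe, outlier spots kept, a 2-fold threshold and every probe past the threshold. Settings not in the plan were also run: probes with background outlier flags left out too, and the measured ratio in place of the limit. The code was tested on simulated arrays. The software was R 4.3.3 and Python 3.11.15 with numpy 2.4.6, pandas 2.3.3, matplotlib 3.10.9 and statsmodels 0.14.6.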

Additional observations from a re-analysis of the deposited data

How the results depend on the processing

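The count of members at least 1.5-fold higher was 0 under all 13 alternatives, and the count lower was 1 under 12 of them. That 1 gene is *odam*, which was selected on its extreme ratio, so its place in the count is no sign of stability. The count lower was 2 with the measured ratio in place of the limit, which adds *runx2a* (chosen after seeing the data). The members' median was -0.0068 with normexp, against -0.12, and ranged from -0.14 to -0.01 over 11 alternatives. *odam* ranked 7 from the bottom with normexp and 7 with the measured ratio, against 3. With the measured ratio, dim genes that a limit had held above *odam* fall below it, and the cause under normexp was not tested. Its log2 ratio ranged from -4.95 to -3.50. Of 102 single-gene values under alternatives, 88 moved by less than 0.10, the median spot SD over 26 replicated probes, and 14 moved by more. The 102 include the authors' values for 1 probe each of *odam*, *sparc* and *col10a1a*. For *sparc* (0.69) and *col10a1a* (0.70) these set 1 probe against a mean over several, and both count as moved. The median spot SD pools dim probes (median 0.24) and brighter ones (0.086), so it is a narrow yardstick for dim genes. Of the genes in the lists, 11 to 18 were higher and 5 to 8 lower over 12 alternatives, and of the 23 called genes 13 kept their call under all 11 settings that change a ratio, 9 lost it under at least 1, and *scpp9* had no ratio when both arrays had to be above background. Scaling moved the median of all genes by at most 0.068. No paired analysis was possible because there was a single array for each condition. Naming probes by the gene names of the array was not run, since the scanner files used here hold no such column. The wider spread of negative control spots and the higher lowest intensity above background on the *miR-132* MO array limit dim genes, *runx2a* and *runx2b* among them.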
